A study of Homo sapiens with 6 samples.

Results

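*FOS*, *FOSB*, *FOSL1*, *FOSL2*, *JUN*, *JUNB*, *JUND*, *EGR1*, *ATF3* and *IER3* are genes of the AP-1 group and of the immediate early response. They were taken by gene symbol from an RNA-seq table of 20347 symbols, and all 10 were listed. All 10 also passed the filter on low values, which asked for 10 or more normalized counts on average and left 12773 genes. *IER3* did so only through 1 library. The cells were PaTu8988t, an established human cell line of pancreatic ductal adenocarcinoma (PDAC), grown in DMEM with fetal bovine serum. 3 libraries came from control cells and 3 from SAMD1 KO cells, in which *SAMD1*, a chromatin regulator that binds unmethylated CpG islands, was targeted by CRISPR/Cas9. Per the study's methods, the CRISPR vector carried either an unspecific control guide or guides against *SAMD1*, single clones were selected with puromycin, and each SAMD1 KO library is 1 independent clone. The 3 KO values therefore spread over clones, whereas nothing in the labels gives the origin of the control replicates beyond their number, and a p-value here measures only the spread between these libraries. A control replicate and a KO clone that carry the same number share nothing else in the labels.

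AP-1 is a dimer of basic leucine zipper (bZIP) proteins. The JUN proteins pair with each other or with a FOS protein, whereas FOS proteins need a JUN partner, and the dimers bind the TPA response element and related sites. Many of these genes are immediate early genes: they are switched on within minutes of growth factor or stress signals through preformed factors such as SRF, the ELK proteins and CREB, and their transcripts are short lived. In carcinoma cells with active RAS signalling, FOSL1 is known as a target of the ERK pathway, and AP-1 is known for the control of proteases and other genes of migration and invasion.

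The values are normalized counts, that is reads per gene divided by 1 size factor per library. The libraries held from 35589477 to 45172216 recovered reads. The targeted gene, *SAMD1*, was listed at 2231, 2382 and 2299 in control cells and at 874, 1082 and 825 in the KO clones, with no overlap (log2 fold change -1.32, limma adjusted p = 0.00072). Over all genes the KO clones differed more from each other than the control replicates did, with a chi-square per degree of freedom of 51.2 to 58.9 between clones and 2.66 to 5.24 between control replicates. Of the epithelial markers, *KRT8* ranged from 32902 to 57041 and *EPCAM* from 422 to 626, whereas *CDH1* lay between 24.02 and 45.8 and *KRT19* was listed at 0 in every library. *KRT7* was called higher in the KO clones, at 26.4 to 34.3 in control cells and 78.1 to 90.7 in the clones, and *KRT18* was called higher too, at 29200.3 to 29771 and 33001 to 50795, though in only 1 of 6 fits that left out 1 library. The part of these differences in the values below was not tested. Of 17 markers of other cell types 8 passed the filter and 0 were called with limma, 4 of them at an unadjusted p below 0.05 towards lower and 1 towards higher, and the summed level of the list was 1027 to 1035 in control cells and 917 to 1130 in the KO clones. In that list *CD3E*, *DCN*, *INS* and *PRSS1* were at 0 reads in every library, *PTPRC* did not exceed 2.7, and *ACTA2* and *CD68* had the highest means over the 6 libraries. The widest differences in the list were in both directions and not called: *COL3A1* was at 109 to 113 in control cells and 130.4 to 398 in the KO clones, *COL1A1* at 48.9 to 52.7 and 15.3 to 41.5, and *CDH5* at 29.4 to 37.8 and 2.97 to 17.3. RNA was measured in bulk, so fewer cells of a type and less RNA per cell cannot be told apart.

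Among the AP-1 and immediate early genes, *FOSL2* and *JUNB* were higher in the KO clones by the study's cut-off, a log2 fold change beyond 0.5 with an unadjusted p below 0.01, tested here with limma. *FOSL2* rose 1.72-fold and *JUNB* 2.07-fold, and *JUN* was lower in each clone than in each control library without passing the test. *FOSL1*, by far the most abundant of the group, had nearly the same level in both conditions. 2 of 10 genes were called higher, beside 5.77% of all tested genes, and 0 were called lower, beside 2.08%. In either direction 7.85% of tested genes were called. At an unadjusted p below 0.05 with no limit on the fold change, 5 of 10 were higher and 1 was lower, beside 16.1% and 13.5% of tested genes (29.6% in either direction). With an adjusted p below 0.05 in place of the unadjusted limit, again 2 of 10 were called higher and 0 lower, beside 5.34% and 1.87% of tested genes (7.21% in either direction). DESeq2 and the quasi-likelihood test of edgeR on the recovered reads also called 2 higher and 0 lower. The groups did not overlap for 6 of the 10 genes, 5 of them higher (*FOS*, *FOSL2*, *JUNB*, *JUND* and *ATF3*) and 1 lower (*JUN*), beside 37.8% of tested genes (19.2% higher and 18.6% lower). The median log2 fold change of the 10 genes was 0.39, and that of all tested genes was -0.0059.

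**Figure D1:**
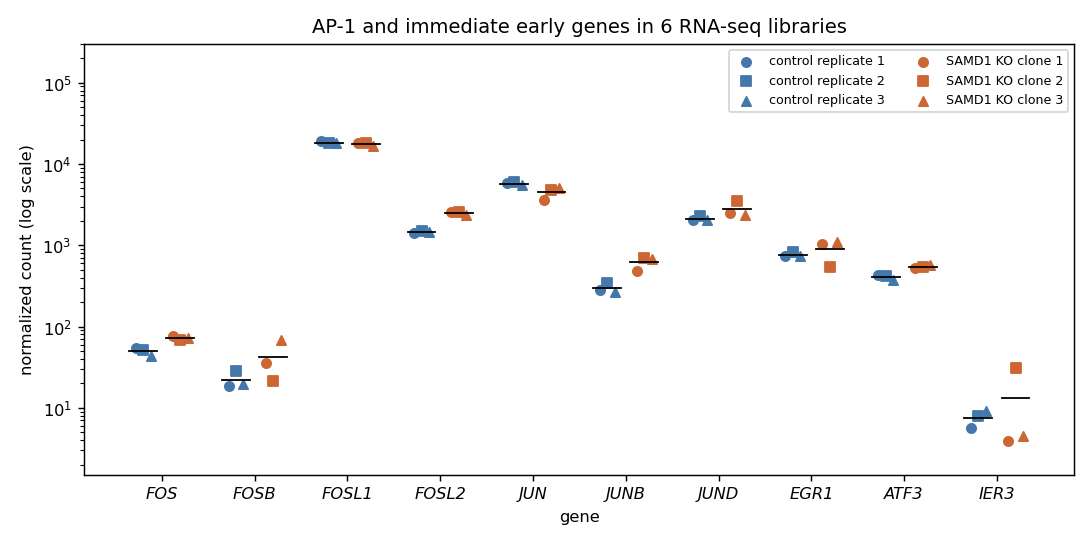
Normalized count on a log axis for each of the 10 genes in each library, with control replicates in blue, SAMD1 KO clones in orange and a bar at each group mean. *FOSL1* lies between 16642 and 19044 and *IER3* at 31.1 or lower, and the 2 colours separate completely for *FOS*, *FOSL2*, *JUN*, *JUNB*, *JUND* and *ATF3*.

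*FOSL2* encodes FRA2, a FOS family protein that lacks the strong activation domain of c-FOS. The gene (chr2:28392448-28417317, plus strand, GRCh38, GENCODE 44) was listed at 1407, 1519 and 1452 in control cells and at 2591, 2569 and 2376 in the KO clones. All clones lay close together and far above all control libraries. The mean was 1459.6 ± 56.6 in control cells and 2512 ± 118 in the clones (SD, n = 3 each), with a log2 fold change of 0.78 (SE 0.063, limma adjusted p = 0.00074). It was called in 6 of 6 fits that left out 1 library, with log2 fold changes of 0.76 to 0.82. *FOSL2* shares 2233 bases with an antisense lncRNA on the opposite strand and 296 bases with a lncRNA on its own strand. The kit marks strand, but the setting used for counting is not given in the sources used here, so reads of overlapping genes may not be fully separated.

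*JUNB* encodes a JUN protein that activates transcription less than c-JUN and can restrain it in a dimer. The single-exon gene (chr19:12791486-12793315, plus strand) was listed at 279, 348 and 263 in control cells and at 477, 698 and 672 in the KO clones. Clone 1 was the lowest of the clones and still above the highest control library. Group means were 297 ± 45.2 and 616 ± 121 (SD, n = 3 each), and the log2 fold change was 1.04 (SE 0.18, limma adjusted p = 0.011). Leaving out 1 library kept the call in 6 of 6 fits, with log2 fold changes of 0.94 to 1.21. In 4 of these fits the adjusted p was below 0.05, and it was 0.0637 without control replicate 1 and 0.0599 without control replicate 3. All 1830 bases of *JUNB* lie opposite *HOOK2*, a gene for a microtubule linker protein. *HOOK2* was at 193, 203 and 162 in control cells and at 174, 206 and 208 in the KO clones, with overlapping groups and a log2 fold change of 0.08.

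Sequence upstream of the RefSeq start is shown for the called genes *FOSL2* and *JUNB* and for *JUN*, which lay on the other side of 0, because the study names GCGC as the preferred motif of SAMD1. Capitals mark GCGC, which reads the same on both strands. The stretches come from RefSeq on GRCh38.p14, are written 5′ to 3′ on the strand of the gene, and end before the first exon of any coding transcript: *FOSL2* at chr2:28392608-28392801 on the plus strand, *JUNB* at chr19:12791236-12791485 on the plus strand and *JUN* at chr1:58784049-58784297 on the minus strand. GENCODE 44 starts *FOSL2* further upstream than RefSeq, with a transcript that has no defined coding sequence, so the *FOSL2* stretch lies inside the gene interval given above, in an intron of that transcript.
FOSL2: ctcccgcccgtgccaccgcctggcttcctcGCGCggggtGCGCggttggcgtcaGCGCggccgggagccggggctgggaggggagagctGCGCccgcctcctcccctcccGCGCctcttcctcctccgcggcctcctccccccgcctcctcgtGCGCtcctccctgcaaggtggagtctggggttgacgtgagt
JUNB: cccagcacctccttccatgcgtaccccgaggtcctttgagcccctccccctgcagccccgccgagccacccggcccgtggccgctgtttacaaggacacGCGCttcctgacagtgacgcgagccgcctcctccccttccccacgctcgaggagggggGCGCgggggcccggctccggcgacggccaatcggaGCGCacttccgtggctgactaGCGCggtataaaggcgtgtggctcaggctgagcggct
JUN: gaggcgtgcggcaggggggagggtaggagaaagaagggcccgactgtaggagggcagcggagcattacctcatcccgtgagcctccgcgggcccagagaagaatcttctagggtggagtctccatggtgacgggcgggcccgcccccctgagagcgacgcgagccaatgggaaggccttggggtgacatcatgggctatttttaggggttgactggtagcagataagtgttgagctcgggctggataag

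RefSeq promoters were matched for 8 of the 10 genes, all but *FOSL1* and *IER3*, and the 250 bases before the RefSeq start were searched. GCGC occurred 6 times before *FOSL2*, 4 times before *JUNB* and 0 times before *JUN*. It was also found 7 times before *FOS*, 9 times before *JUND* and 4 times before *EGR1*, and 0 times before *FOSB* and before either listed start of *ATF3*. At least 1 GCGC was present in 53.4% of 35116 RefSeq promoters, so these matches are common letters and a description of the windows only. The 2 called genes and 3 genes that were not called held the motif, and 3 genes that were not called did not. A full CRE (TGACGTCA, searched on both strands) was found only before *JUND*, beside 1.65% of promoters, and the TPA response element TGACTCA before none of the 8, beside 4.2%. SAMD1 binding was not analysed here.

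*FOS*, the founding member of its family and the classical serum-induced gene, was low in these cells, with 13.9% of 12690 ranked genes below it per kilobase of transcript. The gene (chr14:75278826-75282230, plus strand, 4 exons) was listed at 53.8, 51.9 and 43.5 in control cells and at 76.1, 67.4 and 72.9 in the KO clones, from 38 to 81 reads a library. All clones were above all controls. Its log2 fold change of 0.53 (SE 0.17) had an unadjusted limma p of 0.0162 and a limma adjusted p of 0.0864, so *FOS* passed the fold limit and not the limit on p. The log2 fold change was under 0.5 in some alternatives, at 0.46 with a pseudocount of 10, 0.44 without control replicate 3, 0.49 without clone 1 and 0.44 with neighbour medians removed. Its groups can be compared in a two-sided exact permutation test as well, where p = 0.1 is the smallest value that 3 against 3 libraries allow. That same smallest value was reached by each of the 6 genes whose groups did not overlap.

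*FOSB*, the other gene of the family with a strong activation domain, was at 18.3, 28.4 and 19.5 in control cells and at 35.6, 21.6 and 68.4 in the KO clones (chr19:45467995-45475179, plus strand). Clone 2 lay within the control range, and clone 3 was the highest. Clone 3 held 76 reads, with an exact Poisson 95% interval of 59.9 to 95.1, and clone 2 held 25 reads, with an interval of 16.2 to 36.9. These intervals cover counting error only. *FOSB* had a log2 fold change of 0.77 (SE 0.42, limma adjusted p = 0.270), with 0.34 without clone 3 and 1.15 without clone 2. All 7185 bases of *FOSB* lie opposite *ERCC1*, a DNA repair gene with far more reads. *ERCC1* was at 5910, 6146 and 5840 in control cells and at 3629, 4584 and 6889 in clones 1 to 3, so that clone 3 was the highest for both genes.

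*FOSL1* encodes FRA1, the FOS family protein typical of carcinoma cells with strong ERK signalling. The gene (chr11:65892049-65900573, minus strand) was listed at 19044, 18099.8 and 17905 in control cells and at 18352, 18149.8 and 16642 in the KO clones. The groups overlapped, and the log2 fold change was -0.05 (SE 0.060, limma adjusted p = 0.606). In normalized counts per kilobase of the canonical transcript, its level over all 6 libraries exceeded that of 98.4% of the 12690 genes ranked.

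Levels of different genes were compared per kilobase, as normalized counts per kilobase. In control cells the order from high to low was *FOSL1* (10781 ± 358), *JUN* (1766 ± 85.7), *JUND* (1105 ± 81.8), *EGR1* (245 ± 19.4), *FOSL2* (217 ± 8.43), *ATF3* (210 ± 14.6), *JUNB* (162 ± 24.7), *FOS* (23.6 ± 2.59), *IER3* (6.12 ± 1.40) and *FOSB* (5.84 ± 1.46), each as mean ± SD (n = 3). Neighbours in this order did not overlap except *FOSL2* with *ATF3* and *IER3* with *FOSB*. In the KO clones *FOSL1* stayed first at 10408 ± 549 per kilobase, followed by *JUND* (1444 ± 322) and *JUN* (1386 ± 245), whose ranges overlapped. *JUND* was above *JUN* in clones 1 and 2 and below it in clone 3. *FOSL2* (374 ± 17.6) came next, ahead of *JUNB* (336 ± 66.1), *EGR1* (283 ± 94.3) and *ATF3* (281 ± 10.6), and each of these 4 overlapped with its neighbours among them.

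As a share of the summed FOS family level per kilobase, *FOSL1* made up 97.8% ± 0.14 in control cells and 96.1% ± 0.10 in the KO clones (SD, n = 3 each). *FOSL2* made up 1.83% to 2.08% in control cells and 3.44% to 3.48% in the KO clones. The sum of the family was 11028 ± 354 per kilobase in control cells and 10828 ± 561 in the KO clones, and without *FOSL1* it was 247 ± 10.1 and 420 ± 12.4. In the JUN family *JUN* held 57.1% to 59.3% of the level in control cells and 40.2% to 49.5% in the KO clones. *JUNB* held 5.00% to 5.87% and 9.82% to 11.6%, and *JUND* held 35.6% to 37.0% and 38.9% to 49.4%. No share of these 3 genes overlapped between the groups. The summed JUN family level did, at 3033 ± 187 per kilobase in control cells and 3166 ± 511 in the KO clones. Shares within a family depend on each other, and no test was made on them.

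**Figure D2:**
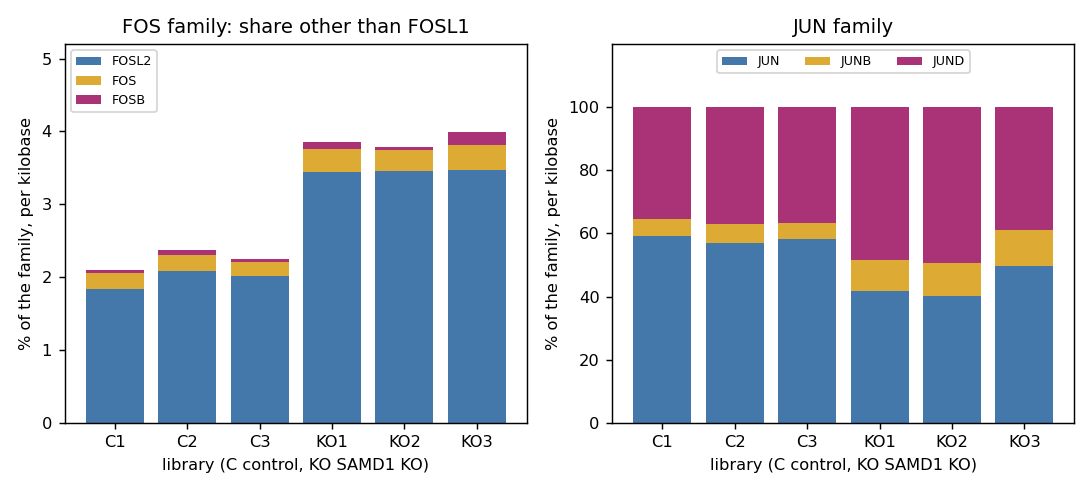
Share of each gene in the summed level of its family per kilobase (percent), for FOS family genes other than *FOSL1* on the left and for the JUN family on the right, with 1 bar per library. *FOSL2* takes 1.83% to 2.08% of the FOS family in the control libraries and 3.44% to 3.48% in the KO libraries, and *JUNB* takes 5.00% to 5.87% and 9.82% to 11.6% of the JUN family.

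*JUN* encodes c-JUN, the most active JUN protein, which is switched on by phosphorylation through the JNK kinases. The single-exon gene (chr1:58776845-58784048, minus strand) was listed at 5760, 6025 and 5467 in control cells and at 3609, 4812 and 5118 in the KO clones. Clone 1 was the lowest, and every clone was below every control library. Mean levels were 5751 ± 279 and 4513 ± 798 (SD, n = 3 each), which gave a log2 fold change of -0.36 (SE 0.13). With an unadjusted limma p of 0.0224 and a limma adjusted p of 0.105 *JUN* was not called, and the log2 fold change was -0.21 without clone 1 and -0.46 without clone 3.

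*JUND*, the JUN family gene that is broadly expressed without stimulation, lies on the minus strand at chr19:18279694-18281622. It was at 2048, 2314 and 2034 in control cells and at 2475, 3499.9 and 2379 in the KO clones. Every clone was above every control library, clone 2 by the widest margin. This was a log2 fold change of 0.37 (SE 0.15, limma adjusted p = 0.146), and of 0.19 without clone 2. The gene is rich in G and C, and when the trend of expression with GC content was removed within each library, an alternative chosen after seeing the data, the log2 fold change was 0.23. The limma adjusted p was 0.0413 in that fit, where *JUND* stayed under the fold limit and was not called.

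**Figure D3:**
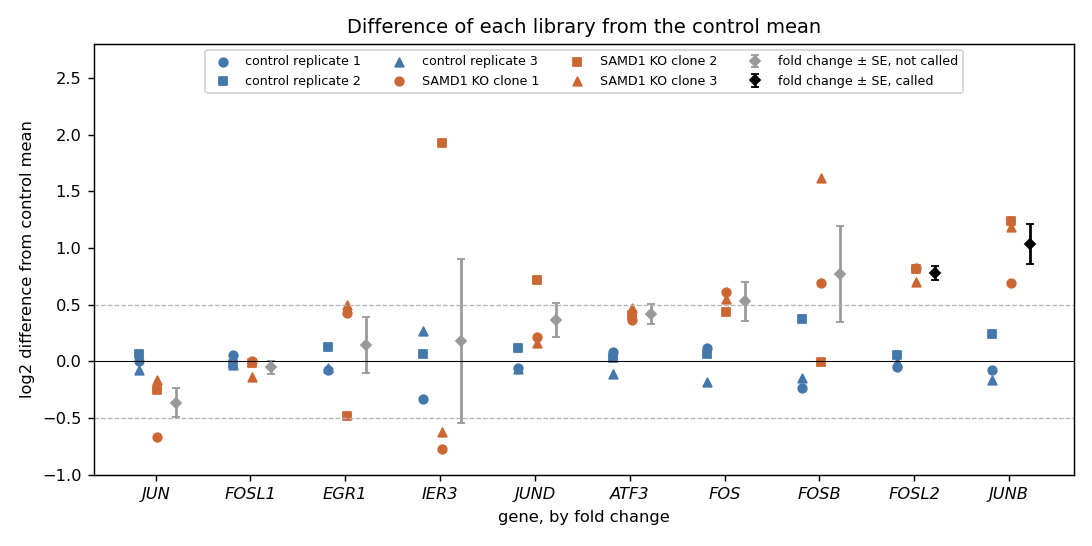
Log2 difference of each library from the control mean for the 10 genes, ordered by log2 fold change, with control replicates in blue, SAMD1 KO clones in orange and a diamond with the SE from limma (black where the gene was called). *FOSL2* and *JUNB* are the called genes, and single clones stand apart for *IER3* (clone 2, 1.93), *FOSB* (clone 3, 1.62) and *EGR1* (clone 2, -0.49).

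*EGR1* is a zinc finger transcription factor and not a part of AP-1, induced through SRF and the ELK proteins at CArG boxes. To show these sites, 80 bases upstream of its start are given (RefSeq, GRCh38.p14, chr5:138465349-138465428, plus strand, 5′ to 3′), with CArG boxes in capitals. The first box begins 105 bases and the next 83 bases before the start, and 1.16% of all RefSeq promoters held a CArG box in the 250 bases searched on both strands.
EGR1: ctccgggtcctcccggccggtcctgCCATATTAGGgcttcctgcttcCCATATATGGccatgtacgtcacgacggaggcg

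The *EGR1* gene (chr5:138465479-138469303, plus strand) was listed at 729, 839 and 739 in control cells and at 1030.4, 548 and 1086 in the KO clones. Clones 1 and 3 were above all control libraries and clone 2 was below all of them. Over the 3 clones the log2 fold change was 0.15 with an SE of 0.25 (limma adjusted p = 0.733). Without clone 2 it was 0.46 (limma adjusted p = 0.0206), still under the fold limit, and without clone 3 it was -0.03. The fit without clone 2 called 7.57% of tested genes, and of the 10 genes it again called *FOSL2* and *JUNB*.

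The genes around *EGR1* were also low in clone 2. The 40 nearest tested genes had a median log2 difference from the control mean of -0.58 in clone 2, beside -0.024 in clone 1 and -0.066 in clone 3, and 35 of the 40 were below all control libraries in clone 2. All 591 tested genes of chromosome 5 had a median of -0.52 in clone 2, with -0.037 and -0.016 in clones 1 and 3, and 493 of them were below all control libraries. In the control libraries the 1st percentile of such medians was -0.067 or higher and the 99th percentile 0.11 or lower. The control libraries are compared with their own mean, which narrows these values. The same percentiles were -0.33 and 0.42 in clone 1, -0.62 and 0.32 in clone 2, and -0.21 and 0.38 in clone 3. After the median of its neighbours was removed in each library, the log2 fold change of *EGR1* was 0.37 (limma adjusted p = 0.0829), which is not a call.

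*FOSB* stood in a similar stretch in clone 3. A run of 278 tested genes over 14.1 Mb (chr19:39385629-53461862) was shifted by a median of 0.31 on the log2 scale in clone 3, beside -0.026 and 0.086 in clones 1 and 2, and 221 of these genes were above all control libraries in clone 3. The run was extended from *FOSB* for as long as the neighbour median in clone 3 stayed above 0.2. Its shift in clone 3 therefore follows in part from that rule and is a description only. The difference of *FOSB* itself in clone 3 was 1.62. The neighbours of the called genes were shifted less. The 40 neighbours of *FOSL2* had medians of 0.061, 0.059 and 0.070 in clones 1 to 3, and those of *JUNB* had -0.0020, 0.12 and 0.0012. In clone 2, 23 of the 40 neighbours of *JUNB* were above all control libraries and 10 were below. With these medians removed, the log2 fold changes were 0.72 for *FOSL2* and 1.00 for *JUNB*, and both were still called. The number of gene copies was not measured, and its part in these stretches was not tested.

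**Figure D4:**
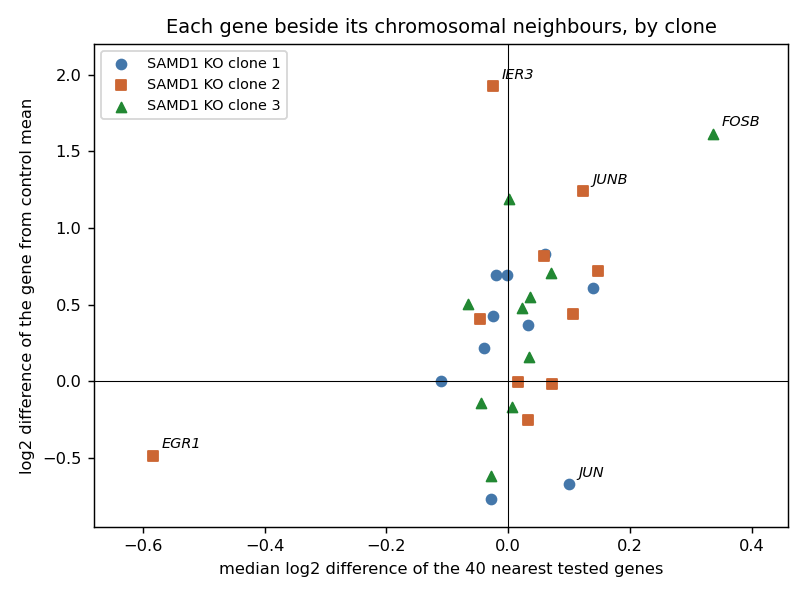
Log2 difference of each gene from the control mean (vertical axis) against the median log2 difference of its 40 nearest tested genes (horizontal axis) in each SAMD1 KO clone, with 1 point per gene and clone. *EGR1* in clone 2 lies at the far left (-0.58) and *FOSB* in clone 3 at the far right (0.34), and the neighbours of the other genes stay between -0.11 and 0.15.

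*ATF3* encodes a stress-induced bZIP protein that pairs with JUN proteins and represses many of its targets. The gene (chr1:212565334-212620777, plus strand) was listed at 432, 415 and 377 in control cells and at 526, 540.0 and 567 in the KO clones. The clones were close together and all above the control libraries. On average they held 544 ± 20.6, beside 408 ± 28.4 in control cells (SD, n = 3 each), and the log2 difference was 0.42 (SE 0.090, limma adjusted p = 0.0260), so *ATF3* passed on p and not on the fold limit. The limma adjusted p ranged from 0.0240 to 0.124 over the fits that left out 1 library, and it exceeded 0.05 in each fit without a control replicate.

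*IER3*, a short immediate early gene linked to survival signalling (chr6:30743199-30744548, minus strand), was close to the detection limit. It was listed at 5.72, 7.83 and 9.16 in control cells and at 3.96, 31.1 and 4.50 in the KO clones, which is 5, 8, 8, 4, 36 and 5 reads. Clone 2 alone was high, and the other clones were below all control libraries. With a mean of 10.4 over all libraries *IER3* passed the filter only through clone 2, so its fold change is given as a description. The exact Poisson 95% interval was 25.2 to 49.8 reads in clone 2 and at most 15.8 reads at its upper end in every other library. *IER3* had a log2 fold change of 0.18 (SE 0.73, limma adjusted p = 0.896), and one of -0.69 without clone 2.

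The spread between clones differed among the genes. The coefficient of variation over the KO clones was 118% for *IER3*, 57.3% for *FOSB* and 33.3% for *EGR1*, beside 22.9%, 24.98% and 7.9% in control cells. It was 4.69% for *FOSL2*, 3.79% for *ATF3* and 6.13% for *FOS*, which held only 77 to 81 reads in the clones. No clone was regularly the highest: clone 1 was the highest clone for 3 of the 10 genes, clone 2 for 3 and clone 3 for 4. Among control libraries, replicate 2 was the highest for 6 of the 10 genes and replicate 3 the lowest for 6.

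Genes related by function were examined in 8 lists, each described by its count of called genes and its median, since no list was tested as a set. Of 13 other AP-1 and Maf bZIP factors 11 passed the filter, with a median log2 fold change of 0.04. In this list 1 was called higher and 1 lower (18.2%), beside 7.85% of all tested genes in either direction. The higher call was *MAF*, which passed the filter through the KO clones alone, so these counts are a description only. *MAF*, a large Maf factor, was listed at 2.29, 1.96 and 4.58 in control cells and at 9.89, 34.6 and 21.6 in the KO clones, with no overlap. With 2, 2 and 4 reads in control cells *MAF* passed the filter only through the KO clones, so its log2 fold change of 2.44 is given as a description. The fold depends on the pseudocount. In fits that left out 1 library *MAF* was called in 6 of 6, and its limma adjusted p was below 0.05 in 1 of 6. *BATF3*, a partner of JUN proteins, was at 344, 331 and 262 in control cells and at 231, 146 and 166 in the KO clones, also with no overlap (log2 fold change -0.80, limma adjusted p = 0.0390). *BATF3* was called in 2 of 6 fits that left out 1 library, and its limma adjusted p was below 0.05 in 1 of 6. The count of called genes in this list was 1 without control replicate 1, control replicate 2 or clone 3. These fits called 5.88%, 6.1% and 8.88% of all tested genes. *ATF2*, a JUN partner that is always present, had a log2 fold change of 0.21 and was not called.

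Of 55 other immediate early genes 50 passed the filter, with a median of 0.16. Among them 4 were called higher and 2 lower (12.0%), beside 5.77% and 2.08% of all tested genes (7.85% in either direction). *NR4A3*, an orphan nuclear receptor, was at 26.3, 30.3 and 24.1 in control cells and at 84.1, 159 and 148 in the KO clones. No other called gene of the list rose as far (log2 fold change 2.19, limma adjusted p = 0.00359). *NR4A2*, of the same receptor family, was at 136 to 162 in control cells and 208 to 434 in the KO clones (log2 fold change 0.96), and was called in 2 of 6 fits that left out 1 library. *TRIB1*, a pseudokinase gene, had a log2 fold change of 0.74, and *BHLHE40*, a gene for a helix-loop-helix repressor, had 0.58, or 0.36 with the neighbour median removed. *DUSP1*, a phosphatase gene that switches off MAP kinases, was called lower at 1373 to 1409.9 in control cells and 603 to 892 in the KO clones (log2 fold change -0.83). It also lies on chromosome 5, and with the neighbour median removed its log2 fold change was -0.61. *CCN2*, a matricellular gene of the YAP and TGF-beta response, was called lower as well (log2 fold change -0.74), and its relative *CCN1*, the most abundant of the list, was not called (log2 fold change -0.31). Without clone 1 the list held 12 called genes and without clone 2 it held 10, beside 9.46% and 7.57% of all tested genes in those fits.

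The upstream factors and kinases had list medians near 0. Of 9 serum response and CREB factors all passed the filter and 0 were called with limma, 2 at an unadjusted p below 0.05 (1 higher and 1 lower), and edgeR and DESeq2 also called 0. The median was -0.02. *ELK1* had a log2 fold change of 0.41 (limma adjusted p = 0.0067), or 0.00 with the neighbour median removed. *ELK4* had -0.21, and *ELK3*, the most abundant, had -0.02. Of 18 genes of the MAP kinase cascade 17 passed the filter, with a median of -0.08. In that list 1 was called higher and 0 lower (5.88%), beside 7.85% of all tested genes in either direction. At an unadjusted limma p below 0.05, 1 was higher and 3 were lower, beside 16.1% and 13.5% of tested genes. The groups did not overlap for 1 gene that was higher and 5 that were lower, beside 19.2% and 18.6%. *RPS6KA3*, which encodes the kinase RSK2 downstream of ERK, had a log2 fold change of 0.58 and 0.24 with the neighbour median removed, where it was not called. *MAPK8*, which encodes JNK1, had -0.24 (limma adjusted p = 0.0195) and was not called. The list held 2 called genes without clone 1 and 2 without clone 2, beside 9.46% and 7.57% of all tested genes in those fits.

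Of 35 AP-1 target genes 25 passed the filter, and 2 were called higher and 0 lower (8.0%), close to the 7.85% of all tested genes, with a median of 0.24. *PLAU*, the gene of the protease urokinase, was at 30174, 28894 and 31838 in control cells and at 44606, 44651 and 48807 in the KO clones, with no overlap (log2 fold change 0.60, limma adjusted p = 0.00236). *TGFA*, the gene of an EGF receptor ligand, had a log2 fold change of 0.68 (limma adjusted p = 0.0156). 10 of the targets were too low to be tested, among them *MMP1*, *MMP3*, *MMP10*, *MMP13* and *IL6*. Without clone 2 the list held 6 called genes and without clone 3 it held 4, beside 7.57% and 8.88% of all tested genes in those fits.

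Of 9 corepressors and target genes of EGR1 all were tested, with a median of 0.24. Here 1 was called higher and 0 lower (11.1%), beside 7.85% of all tested genes in either direction. That gene was *PDGFB*, a growth factor gene, at 98.4, 93.9 and 116 in control cells and at 255, 496 and 229 in the KO clones (log2 fold change 1.58, limma adjusted p = 0.0138). *NAB1*, an EGR1 corepressor, had a log2 fold change of 0.27 and was not called. Clone 2, which had the lowest *EGR1*, had the highest *PDGFB*. Without clone 2 the list held 3 called genes and without clone 3 it held 2, beside 7.57% and 8.88% of all tested genes in those fits.

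All 10 partners of ATF3 and genes of the integrated stress response were tested, and each had a log2 fold change above 0, with a median of 0.54. 3 of them were called higher and 0 lower, beside 5.77% higher in all tested genes. *GDF15*, a stress cytokine gene, had a log2 fold change of 1.02 (limma adjusted p = 0.0633). *ASNS*, the gene of asparagine synthetase, had 0.62 (limma adjusted p = 0.0383), and *TRIB3*, a pseudokinase gene induced by ATF4, had 0.61 (limma adjusted p = 0.0397). With the neighbour median removed *TRIB3* had 0.43 and was not called, whereas *GDF15* (0.99) and *ASNS* (0.66) still were. *ATF4* itself was at 5692 to 6228 in control cells and at 5631, 6929.7 and 8144 in the KO clones, with overlapping groups and a log2 fold change of 0.18. *CEBPG*, a dimer partner of ATF4, had 0.21 and was not called. The list held 0 called genes without any one of the control replicates or without clone 3, 1 without clone 2 and 7 without clone 1. Over these fits the log2 fold change was 0.80 to 1.35 for *GDF15*, 0.44 to 0.77 for *ASNS* and 0.48 to 0.80 for *TRIB3*. Of all tested genes, 5.88% to 6.1% were called when a control replicate was left out and 7.57% to 9.46% when a clone was.

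Heat shock genes were taken as a sign of handling stress. Of 12 such genes 10 were tested, whereas *HSPA1A* and *HSPA1B* were too low to be tested. With limma 0 were called, 1 higher and 3 lower at an unadjusted p below 0.05, and edgeR and DESeq2 also called 0. Without clone 3 the list held 2 called genes, beside 8.88% of all tested genes in that fit. The median log2 fold change of the list was -0.10. The summed level of the list was 409306 to 432697 in control cells and 359635 to 382309 in the KO clones, with no overlap. *DNAJA1* had a log2 fold change of -0.32 and *HSP90AA1*, the most abundant, had -0.20. The part of this difference in the immediate early values was not tested.

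**Figure D5:**
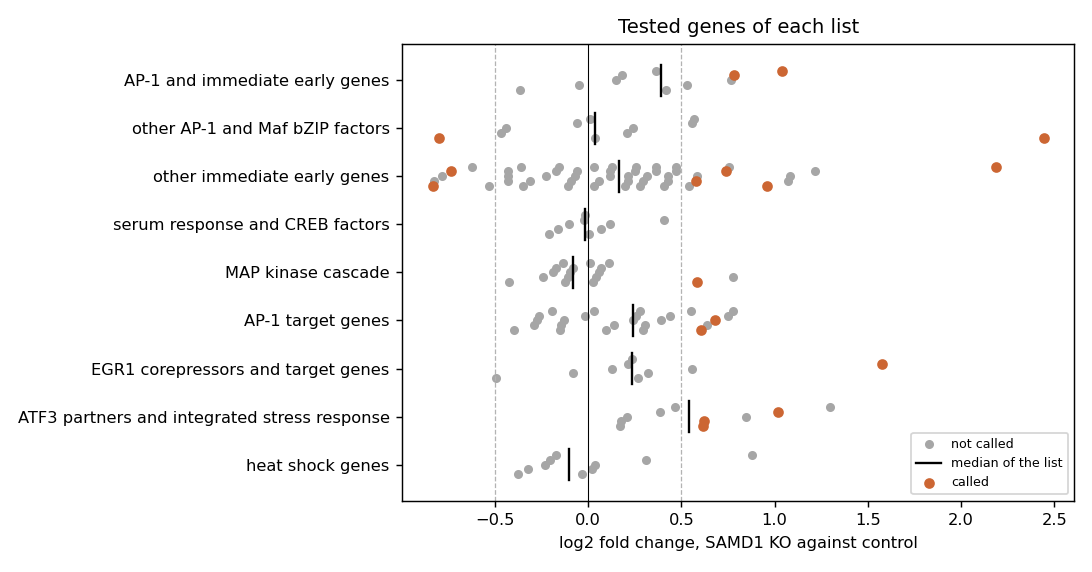
Log2 fold change (SAMD1 KO against control) of each tested gene in the 10 AP-1 and immediate early genes and the 8 related lists, with called genes in orange and a black line at each list median. The medians lie at 0.39 for the 10 genes and 0.54 for the ATF3 list, and between -0.10 and 0.24 for the other lists.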

How the data were processed

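Total RNA of PaTu8988t cells was sequenced with a stranded mRNA kit in 3 control and 3 SAMD1 KO libraries. Alignment to GenCode 43 transcripts (hg38) was done by the authors with RNA-Star, and the submitters' processing notes name featureCounts and DESeq2 for counting and normalization. The deposited signal is a normalized count, with each library scaled by its own size factor (0.873 to 1.16), and 100% of values were whole multiples of 1 step (tolerance 0.02 reads), which gave back the reads. A table of the authors' own comparison (fold changes and p-values) was not used. No column of per-sample values was left unused (0).

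Groups were taken from the genotype labels. Genes averaging 10 or more normalized counts were compared on log2(normalized count + 1) with limma 3.58.1 (eBayes with trend, R 4.3.3), two-sided, with Benjamini-Hochberg adjustment over 12773 genes, and log2 fold changes are on that scale. Called genes had a log2 fold change beyond 0.5 and p below 0.01. The gene lists and the 10 genes were chosen with earlier results of these data known. Named from each list were the called genes, the 2 smallest p-values and the highest level. The gene of highest level is not reported here for 3 lists. From the marker lists the lowest and highest were named, and *KRT7*, *KRT18*, *CDH1*, *COL3A1*, *COL1A1*, *CDH5*, *HOOK2* and *ERCC1*, *MMP1* and the other low targets, and *HSPA1A* and *HSPA1B*, were named after their values were seen.

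Symbols were matched to GENCODE 44 (19734 symbols, 188 by an older symbol). The neighbour median is that of the 40 nearest tested genes. Alternatives were pseudocounts of 0.1 and 10, no filter and a minimum mean of 50, scaling by TMM or the 75th percentile, a replicate block, fits without 1 library, edgeR 4.0.16 and DESeq2 1.42.0 on the recovered reads, removing neighbour medians, an adjusted p below 0.05 and, chosen after seeing the data, removing the GC trend. On simulated data for this comparison with 12773 genes, of which 200 changed 2-fold, limma recovered 198 and called 27 unchanged genes, edgeR recovered 198 and DESeq2 191. All simulated libraries were drawn around the control means with the same spread, so the wider spread between the real KO clones was not represented. These counts therefore do not give the share of changes that would be found between real clones.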

Additional observations from a re-analysis of the deposited data

How the results depend on the processing

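Every alternative that was run called 2 of the 10 genes higher and 0 lower. Over all genes the count called higher was 568 to 862 and the count called lower 180 to 370 over the alternatives. Of 178 log2 fold changes of the 10 genes under alternatives, 176 kept their direction, and no gene gained or lost its call. Dropping the filter, the minimum mean of 50, the replicate block and the adjusted p do not alter a fold change. Direction could not change in these settings, so they are no check on it. Single limits were crossed without a change of call: *FOS*, at 0.53, ran from 0.44 to 0.59, *FOSB*, at 0.77, from 0.34 to 1.15, and *IER3*, at 0.18, reached 0.82 with edgeR. The exceptions in direction were *EGR1*, at -0.030 without SAMD1 KO replicate 3, and *IER3*, at -0.69 without SAMD1 KO replicate 2. When 1 library was left out, *EGR1* ran from -0.030 to 0.46 and *IER3* from -0.69 to 0.65. A minimum mean of 50 left *FOSB* and *IER3* untested at that setting. The counts of called genes in the lists moved more. The other AP-1 and Maf factors had 1 with the minimum mean of 50 and 1 to 3 when 1 library was left out. The other immediate early genes had 11 with DESeq2, 10 with neighbour medians removed and 5 to 12 when 1 library was left out. The MAP kinase cascade had 0 with neighbour medians removed and 1 to 2 when 1 library was left out. The ATF3 list had 5 with the replicate block, 5 with DESeq2 and 0 to 7 when 1 library was left out. When 1 library was left out, the AP-1 targets had 2 to 6, the EGR1 list 1 to 3 and the heat shock genes 0 to 2. For the fits with fewer libraries and the higher minimum the data set itself changed, and for the others the cause was not tested. Same-numbered control and KO libraries correlated at 0.0318 to 0.134 in their deviations from the group means, 1 of 3 pairs over 0.1, so the numbers were not taken as pairs, although 5 of 6 libraries correlated best with their own number. With the replicate number as a block 725 genes were called higher and 259 lower, beside 737 and 266, and the calls of the 10 genes did not change. Depth limits *IER3*, *FOSB* and *FOS*, with 4 to 81 reads a library. For the other genes the number of libraries, with 1 clone each, limits the precision.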
